A study of Mus musculus with 44 samples.

Results

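Foxp3 and 7 further genes that define regulatory T cells, namely Ikzf2, Ikzf4, Il2ra, Ctla4, Tnfrsf18, Lrrc32 and Cd101, were followed through cultured mouse CD4 T cells. The 8 genes were taken by their symbols from a table of 55416 genes, and all 8 passed the filter on low counts that left 21873 genes for testing. The source was bulk mRNA of naive CD4 cells, sorted out of splenocytes of C57BL/6NTac mice and then grown for 3 days on antibodies to CD3 and CD28. In Treg cultures TGF-b1 and an antibody to IFN-g were added, in Th1 cultures IL-12 and an antibody to IL-4, and Th0 cultures held the CD3 and CD28 antibodies alone. Each culture was made from miR-150 knock-in (KI), knockout (KO) and wild-type (WT) mice, miR-150 being a microRNA of lymphocytes. The 9 groups had 5 libraries each, with 4 for Th0 KI, and 44 libraries in all. Libraries are named here by culture, genotype and number. The age and sex of the mice, the way the alleles were made and what a library's number marks are not stated in the labels. P-values therefore measure the spread between these libraries, which may be technical.

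FOXP3 is the transcription factor that fixes the identity of regulatory T cells, which restrain other T cells and prevent autoimmunity. In naive CD4 T cells, T cell receptor signals together with TGF-beta and IL-2 switch the Foxp3 gene on through SMAD, STAT and RUNX factors, and cells made this way are called induced regulatory T cells. HELIOS (Ikzf2) and EOS (Ikzf4) are zinc finger factors of the Ikaros family that work with FOXP3. Il2ra encodes CD25, the alpha chain of the high-affinity IL-2 receptor. Ctla4 encodes an inhibitory receptor that takes the CD28 ligands CD80 and CD86 from presenting cells, and Tnfrsf18 the TNF receptor family member GITR. These 3 receptor genes are also switched on in conventional T cells after activation. Lrrc32 encodes GARP, which holds latent TGF-beta on the cell surface, and Cd101 an inhibitory surface protein.

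Promoters are shown for Foxp3 and Cd101, which had the largest fold changes of Treg over Th0, and for Tnfrsf18, which did not rise there. Letters that match short motifs of SMAD, STAT, RUNX and forkhead factors can so be read beside the values. Each stretch is from RefSeq on GRCm38.p6 and runs from 250 bases before to 50 bases after an annotated start, 5′ to 3′ along the gene. Capitals mark matches on either strand to CAGAC (SMAD), TTCNNNGAA (STAT), TGTGGT (RUNX) and TGTTTAC (forkhead), and no matches overlapped one another. The table held 6 promoters of 5 of the 8 genes, and none of Ikzf2, Ikzf4 and Lrrc32.

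The first Foxp3 start (chrX:7579426-7579725, plus strand) has 1 SMAD match, and the second (chrX:7580233-7580532, plus strand) 1 STAT match. Cd101 (chr3:101029504-101029803, minus strand) has 1 RUNX match. Tnfrsf18 (chr4:156026072-156026371, plus strand) has 2 SMAD matches and 1 STAT match.
Foxp3 first start: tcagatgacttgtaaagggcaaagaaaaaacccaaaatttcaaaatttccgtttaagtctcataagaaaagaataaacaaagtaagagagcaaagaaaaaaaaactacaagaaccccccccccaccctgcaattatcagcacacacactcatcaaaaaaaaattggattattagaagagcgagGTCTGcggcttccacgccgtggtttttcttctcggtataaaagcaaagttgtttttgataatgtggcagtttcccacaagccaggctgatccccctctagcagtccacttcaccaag
Foxp3 second start: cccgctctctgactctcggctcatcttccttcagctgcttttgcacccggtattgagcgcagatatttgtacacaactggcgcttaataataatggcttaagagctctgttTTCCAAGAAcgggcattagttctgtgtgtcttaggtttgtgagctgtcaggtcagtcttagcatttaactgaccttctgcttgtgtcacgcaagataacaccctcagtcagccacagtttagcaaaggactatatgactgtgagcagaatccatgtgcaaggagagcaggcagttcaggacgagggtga
Cd101: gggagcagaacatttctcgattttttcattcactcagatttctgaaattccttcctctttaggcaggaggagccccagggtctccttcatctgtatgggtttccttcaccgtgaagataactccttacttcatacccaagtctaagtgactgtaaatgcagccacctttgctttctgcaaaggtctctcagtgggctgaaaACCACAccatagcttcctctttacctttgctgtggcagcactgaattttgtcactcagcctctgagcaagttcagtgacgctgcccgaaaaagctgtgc
Tnfrsf18: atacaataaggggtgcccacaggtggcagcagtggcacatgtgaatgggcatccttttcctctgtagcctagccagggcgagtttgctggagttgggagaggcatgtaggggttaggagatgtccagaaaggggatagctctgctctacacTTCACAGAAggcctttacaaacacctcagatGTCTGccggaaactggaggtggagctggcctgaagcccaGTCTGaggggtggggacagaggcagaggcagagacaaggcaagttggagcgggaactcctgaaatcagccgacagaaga

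Among all 32851 promoters of the same length, 49.6% held a SMAD match, 8.3% a STAT match, 16.8% a RUNX match and 3.65% a forkhead match. The promoters of Ctla4 (chr1:60908775-60909074, plus strand) and Il2ra (chr2:11642542-11642841, plus strand) held none of these, and no promoter of the 5 genes held the forkhead letters. A match is a description of the letters only.

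Some Treg libraries stood apart from the others of their genotype. Treg KI 3, Treg KO 2 and Treg WT 4 held 318, 73.1 and 443 CPM (counts scaled to a common library total) of Cd8a, a marker of CD8 T cells, against 4.16 to 23.9 CPM in the other 12 Treg libraries. Their summed level of 8 CD8 T and NK cell markers was 677, 352 and 1108 CPM, and next in order came Treg WT 3 at 205 CPM. They also held the least Cd4 of their genotype, at 389, 439.6 and 289 CPM. The Th1 and Th0 libraries with the same numbers held the most Cd8a of their group in 5 of 6 cases, the exception being Th1 KO 2 at 21.3 CPM, below Th1 KO 3 at 31.7 CPM. They also held the highest sum of 8 B cell markers in every Th1 and Th0 group, from 473 CPM in Th1 KO 2 to 1894 CPM in Th0 KI 3. In Treg groups this held for Treg KI 3 at 1193 CPM, not for Treg KO 2 and WT 4 at 305.7 and 305.6 CPM. Fold changes whose call depends on the 9 libraries numbered KI 3, KO 2 and WT 4 are given with and without them. This covers the 8 genes, save Foxp3 and Cd101 of Th1 KO over Th0 KO, whose main values with all libraries are not given. In Treg groups the summed myeloid and dendritic cell markers ran from 8.46 to 58.8 CPM, against 2.43 to 16.8 CPM in Th0 groups. Of 10 myeloid and dendritic markers 8 were tested, and 4 rose in each genotype in Treg over Th0, S100a8, S100a9 and Lyz2 with Itgam in KO and WT and Csf1r in KI. Clec9a and Siglech, which define dendritic cell types, were not tested and had 0 counts in 7 and 8 of 15 Treg libraries. They had 0 counts in 12 and 14 of 14 Th0 libraries and in 11 and 14 of 15 Th1 libraries. Of 8 CD4 T cell markers 4 rose in each genotype, the T cell receptor genes Cd3e, Cd3d, Cd3g and Trac. Of 8 CD8 and NK markers 0 rose and 3 fell in KI, 0 and 1 in KO and 1 and 1 in WT, of 8 B cell markers 0 and 0, 0 and 1, and 0 and 1, and of 6 erythroid markers 0 and 3, 0 and 0, and 0 and 0. Without KI 3, KO 2 and WT 4 the CD8 and NK counts were 1 and 4, 0 and 4, and 1 and 1, the B cell counts 0 and 0, 1 and 0, and 0 and 0, and the erythroid counts 0 and 3, 0 and 2, and 0 and 1. The CD4 T cell counts were then 5 and 0, 4 and 1, and 3 and 1, and 5, 5 and 4 myeloid and dendritic markers rose. With all libraries, 33.6%, 33% and 33.1% of all genes were called in Treg over Th0 in KI, KO and WT. What part these markers have in the results below was not tested. Library totals ran from 60815821 to 137415965 counts.

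Foxp3 (chromosome X, 7573644 to 7595245, plus strand of GRCm38) separated Treg cultures from both others in every genotype. It stood at 479, 524, 61.97, 558.6 and 558.5 CPM in Treg KI 1 to 5, at 419, 77.4, 376, 411 and 431 CPM in Treg KO 1 to 5, and at 534, 519, 159, 47.7 and 596 CPM in Treg WT 1 to 5. In the 15 Th1 libraries it ran from 0.569 through a median of 1.19 to 4.35 CPM, and in the 14 Th0 libraries from 0.362 through 0.976 to 3.19 CPM. The lowest Treg library therefore lay above the highest Th1 and Th0 library, although the Treg libraries themselves spread 12.49-fold. The log2 fold change of Treg over Th0 was 8.64 ± 0.80 (SE) in KI, 8.85 ± 0.73 in KO and 7.69 ± 0.69 in WT, with adjusted p of 2.51e-09, 8.47e-11 and 4.3e-10. Adjusted p-values are from the quasi-likelihood test of edgeR, adjusted over all genes after Benjamini and Hochberg. Without the libraries KI 3, KO 2 and WT 4 it was 8.80, 9.27 and 7.97. In bulk RNA, fewer cells with Foxp3 and less Foxp3 RNA per cell cannot be told apart. In the order of the 9 group means the only neighbours whose libraries did not overlap were Treg KO and Th1 KO.

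Transcripts annotated over the Foxp3 gene were read beside it, since no source at hand says whether counting used strand. Flicr, a noncoding RNA on the same strand that overlaps the 5′ part of the gene, ran from 1.299 to 7.45 CPM in Treg libraries, against 0.250 to 1.53 CPM in Th1 and 0.346 to 1.39 CPM in Th0 libraries. Ccdc22, which overlaps the other end on the opposite strand, ran from 10.6 to 33.8 CPM in Treg libraries, against 8.53 to 21.8 CPM in Th1 and 14.6 to 26.2 CPM in Th0 libraries. Gm36995, a predicted gene that spans Foxp3 on the opposite strand, ran from 3.76 to 18.6 CPM in Treg libraries, against 2.25 to 9.39 CPM in Th1 and 2.09 to 8.50 CPM in Th0 libraries. In each Treg library Foxp3 was above the highest value of any of these, while in Th1 and Th0 libraries Ccdc22 was the higher gene, so the low Foxp3 values there are uncertain. Ppp1r3f (7557296 to 7574283) also overlaps the 5′ end of Foxp3, on the opposite strand, and its level was not read here.

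**Figure D1:**
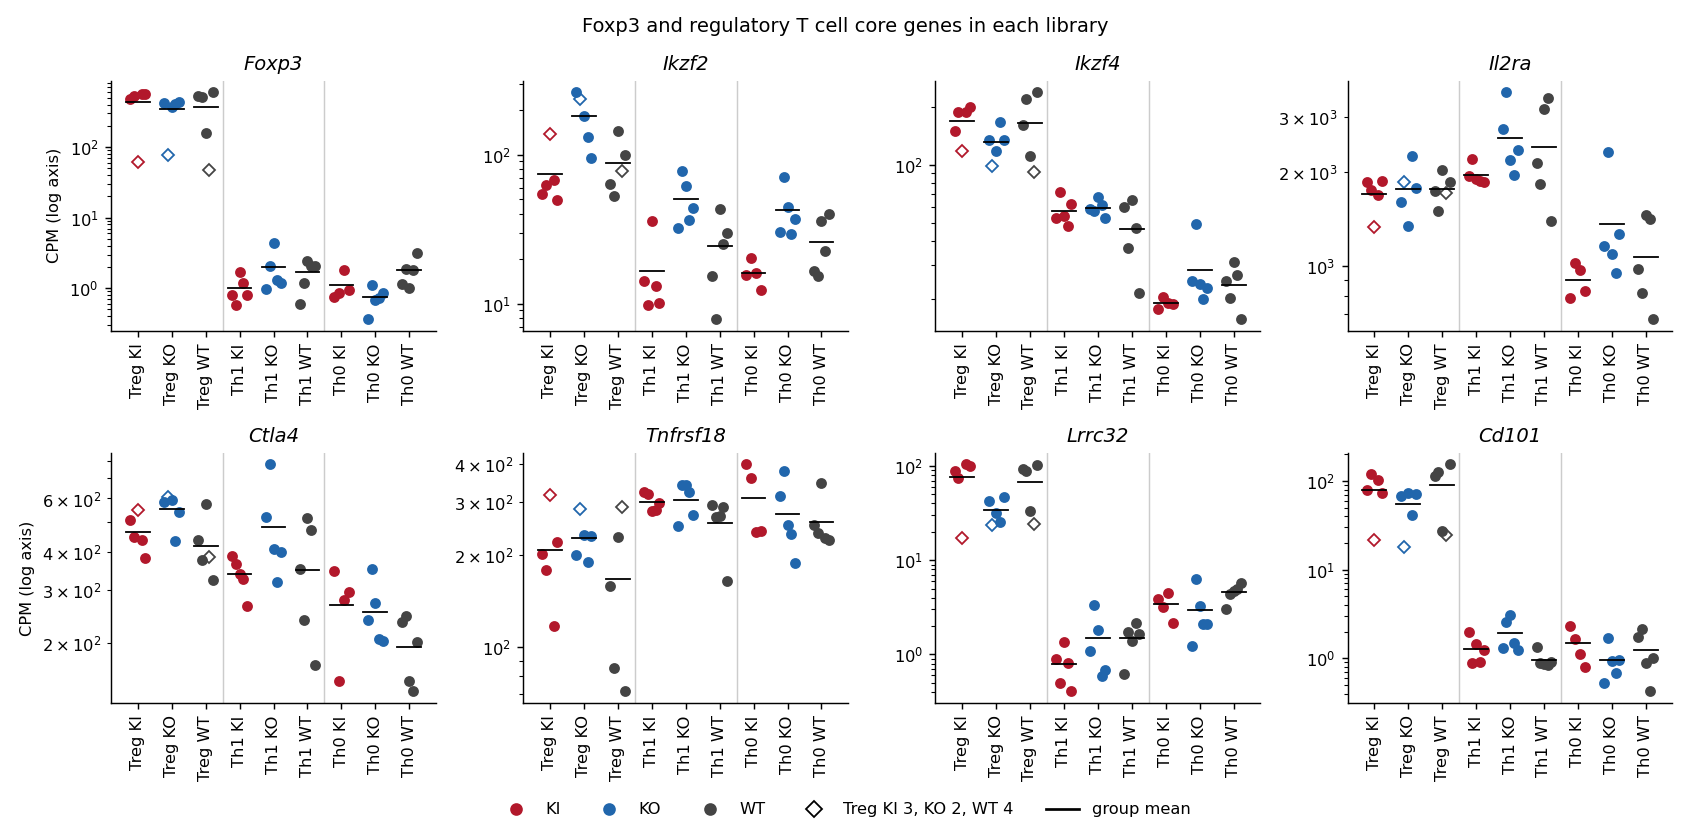
Level of each of the 8 genes in CPM on a log axis, 1 point per library, in 9 groups of culture and genotype, with group means as bars. Foxp3, Lrrc32 and Cd101 lie higher in all 15 Treg libraries than in any other library, Il2ra is highest in Th1 groups, and Tnfrsf18 is lowest on average in Treg groups; open diamonds are Treg KI 3, KO 2 and WT 4.

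Cd101 (chromosome 3, 100993529 to 101029556, minus strand) and Lrrc32 (chromosome 7, 98489283 to 98502181, plus strand) followed Foxp3. Cd101 stood at 79.8, 120.7, 21.7 and 72.7 CPM in Treg KI 1, 2, 3 and 5, with Treg KI 4 between the first and the second of these, at 68.2, 17.99, 73.1, 41.6 and 71.1 CPM in Treg KO 1 to 5, and at 114, 126.4, 27.4, 24.6 and 154 CPM in Treg WT 1 to 5. In Th1 libraries it ran from 0.837 to 3.08 CPM (median 1.26) and in Th0 libraries from 0.425 to 2.35 CPM (median 0.983). The ranges did not overlap, and the log2 fold change of Treg over Th0 was 5.74 ± 0.61 in KI, 5.83 ± 0.55 in KO and 6.16 ± 0.56 in WT.

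Lrrc32 stood at 87.9, 73.7, 17.4, 103.9 and 99.1 CPM in Treg KI 1 to 5, at 42.3, 23.7, 31.6, 25.3 and 47.4 CPM in Treg KO 1 to 5, and at 93.4, 88.4, 33.4, 24.04 and 103.03 CPM in Treg WT 1 to 5. Its Th1 libraries ran from 0.406 to 3.35 CPM (median 1.10) and its Th0 libraries from 1.22 to 6.30 CPM (median 3.57). Every Treg library lay above every other library, and Th1 groups were the lowest, which set Lrrc32 apart in order from Foxp3 and Cd101. The log2 fold change of Treg over Th0 was 4.48 ± 0.57 in KI, 3.51 ± 0.49 in KO and 3.91 ± 0.50 in WT, and that of Treg over Th1 was 6.59 ± 0.57, 4.495 ± 0.52 and 5.51 ± 0.54. Of Th1 over Th0 it was -2.11 ± 0.50 in KI and -1.60 ± 0.47 in WT, where it fell (adjusted p = 0.00767 and 0.0484 by edgeR). In KO the value was -0.99 ± 0.46 (adjusted p = 0.171 by edgeR), not called, and without Th1 KO 2 it was -1.51 and called. The WT call was lost with RLE size factors, with no filter, and without any 1 of 8 of its 10 libraries, all but Th1 WT 5 and Th0 WT 1, with values of -1.74 to -1.39 over all 10 fits.

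The Ikaros family members rose in Treg cultures by less. Ikzf4 (chromosome 10, 128630843 to 128645991, minus strand) was graded, at 168 ± 34.1, 130 ± 25.5 and 164 ± 64.4 CPM in Treg KI, KO and WT (SD, n = 5 each). It stood at 57.7 ± 9.38, 59.6 ± 5.42 and 46.1 ± 17.8 CPM in Th1 KI, KO and WT (SD, n = 5 each), and at 19.1 ± 1.07, 28.2 ± 11.9 and 23.8 ± 5.99 CPM in Th0 KI, KO and WT (SD, n = 4, 5 and 5). Each of the 9 culture comparisons was called, with log2 fold changes of 3.14, 2.21 and 2.79 for Treg over Th0, 1.54, 1.13 and 1.83 for Treg over Th1, and 1.60, 1.08 and 0.96 for Th1 over Th0 in KI, KO and WT. The WT call of Th1 over Th0 was lost in the fit of only the 10 compared libraries (adjusted p = 0.159) and without Th1 WT 1, Th1 WT 3, Th0 WT 2 or Th0 WT 5, at 0.81 to 0.92.

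Ikzf2 (chromosome 1, 69531214 to 69687245, minus strand) rose in Treg over Th0 by 2.22 ± 0.44 in KI, 2.10 ± 0.40 in KO and 1.75 ± 0.40 in WT on the log2 scale, and over Th1 by 2.17, 1.85 and 1.85. Between Th1 and Th0 its values were 0.05, 0.25 and -0.10, none called. In no genotype did a Treg library fall below the highest Th0 library of that genotype.

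None of the 3 receptor genes was called between Treg and Th1 cultures by edgeR in the main model of all 44 libraries. Each was called in some genotype under another fit. Il2ra (chromosome 2, 11642807 to 11693193, plus strand) had its highest means in Th1 groups. Treg KI, KO and WT held 1698 ± 217, 1763 ± 336 and 1762 ± 192 CPM (SD, n = 5 each). Th1 KI, KO and WT held 1949 ± 146, 2559 ± 644 and 2392 ± 880.0 CPM (SD, n = 5 each), and Th0 KI, KO and WT 902 ± 109.6, 1355 ± 550.0 and 1066 ± 354 CPM (SD, n = 4, 5 and 5). Over Th0 it rose in Treg KI and Treg WT by 0.91 ± 0.24 and 0.72 ± 0.22, and in Th1 KI, KO and WT by 1.11, 0.92 and 1.17. The Th1 WT call was lost in the fit of only the 10 compared libraries. In Treg KO over Th0 KO the log2 fold change was 0.38 ± 0.22 (adjusted p = 0.187), and without KI 3, KO 2 and WT 4 it was 0.62 and called (adjusted p = 0.0135), as it was at 0.65 without Th0 KO 2 alone. Th0 KO 2 held 2318 CPM, against 949 to 1265 CPM in the other Th0 KO libraries. Treg over Th1 gave -0.20, -0.54 and -0.44 in KI, KO and WT, none called by edgeR in the main model. The KO value was called with RLE size factors (-0.56, adjusted p = 0.047 by edgeR), in the fit of only the compared groups (-0.55, adjusted p = 0.0309 by edgeR) and by DESeq2 (-0.56, adjusted p = 0.0374). It was also called without Treg KO 4 (-0.66) or Th1 KO 4 (-0.62), and the WT value without Th1 WT 5 (-0.57). With a replicate block the Treg KO values were called over Th0 KO (0.45) and over Th1 KO (-0.50).

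Ctla4 (chromosome 1, 60887000 to 60915832, plus strand) had its lowest means in Th0 groups. It averaged 466 ± 64.9, 552 ± 69.3 and 419 ± 97.1 CPM in Treg KI, KO and WT, 337 ± 46.3, 485 ± 178 and 349.5 ± 148 CPM in Th1 KI, KO and WT (SD, n = 5 each), and 267 ± 82.95, 254 ± 61.4 and 194 ± 48.6 CPM in Th0 KI, KO and WT (SD, n = 4, 5 and 5). In Treg over Th0 it rose by 0.80 ± 0.26 in KI, 1.12 ± 0.24 in KO and 1.11 ± 0.24 in WT. The KI call was lost without KI 3, KO 2 and WT 4 (0.53, adjusted p = 0.0952) and without Th0 KI 3 alone (0.60), which at 149.9 CPM was the lowest of its group. In Th1 over Th0 it rose in KO by 0.93 and in WT by 0.85, not in KI (0.34, adjusted p = 0.488). The WT call was lost without KI 3, KO 2 and WT 4 (0.63, adjusted p = 0.157) and, at 0.67 to 0.85, without any 1 of Th1 WT 1, 3 and 4 and Th0 WT 3, 4 and 5. The WT call was also lost with no filter on low counts (0.85, adjusted p = 0.0581 by edgeR). The fit of only the compared groups lost it too (0.86, adjusted p = 0.232 by edgeR). The KO call was lost without Th1 KO 2 (0.71, adjusted p = 0.0662). Treg over Th1 gave 0.47, 0.19 and 0.26 in KI, KO and WT, none called by edgeR in the main model. The intervals were -0.02 to 0.95, -0.30 to 0.67 and -0.22 to 0.75. In the fit of only the compared groups the KI value was called (0.46, adjusted p = 0.0101 by edgeR).

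Tnfrsf18 (chromosome 4, 156026164 to 156028895, plus strand) was the only one of the 8 with its 3 lowest group means in Treg cultures. It stood at 202.5, 178, 317, 117.4 and 222 CPM in Treg KI 1 to 5, at 199.7, 284, 234, 190.2 and 232 CPM in Treg KO 1 to 5, and at 158, 84.9, 230.2, 289 and 71.3 CPM in Treg WT 1 to 5. Th1 libraries ran from 164.5 to 341 CPM (median 287.5) and Th0 libraries from 189 to 398 CPM (median 246), so the cultures overlapped. Treg over Th0 gave -0.57 ± 0.27 in KI, -0.26 ± 0.26 in KO and -0.63 ± 0.26 in WT, none called by edgeR (adjusted p = 0.0987, 0.468 and 0.0567), while DESeq2 called the WT value (-0.63, adjusted p = 0.0411). Without KI 3, KO 2 and WT 4 the KI value was -0.71 (adjusted p = 0.0444) and the WT value -0.95 (adjusted p = 0.00444), both called, and the KO value -0.22, not called. Treg over Th1 moved the same way, to -0.79 in KI and -0.88 in WT, both called, against -0.53 and -0.62 with all libraries, of which DESeq2 called the WT value (-0.63, adjusted p = 0.0448). The KO value over Th1 was called in the fit of only the compared groups (-0.43, adjusted p = 0.02 by edgeR). With a replicate block, KI was called lower over Th0 (-0.58) and Th1 (-0.59), and WT over Th0 (-0.78) and Th1 (-0.75). The KI values were also called without Treg KI 3 alone (-0.79 and -0.77), and the WT values without Treg WT 3 (-0.77 and -0.78) or Treg WT 4 (-0.90 and -0.91). The WT value over Th1 was also called without Th1 WT 5 (-0.74), which held the least Tnfrsf18 of its group.

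Counted over the 8 genes, 7 were higher in Treg KI, 6 in Treg KO and 7 in Treg WT than in the Th0 cultures of that genotype, and 0 were lower. Of all genes tested, 16.7% were called higher in KI, 17.1% in KO and 17.4% in WT, and 16.9%, 15.9% and 15.7% lower, in all 33.6%, 33% and 33.1%. The median log2 fold change of the 8 was 2.68, 2.15 and 2.27, beside -0.01, 0.04 and 0.02 over all genes. All libraries of Treg lay above all of Th0 for the same 7, 6 and 7 genes, as they did for 13.1%, 11.6% and 7.67% of all genes. The 8 genes were chosen with earlier results of these data known, so these shares are no test of the set. Against Th1 cultures the same 5 genes were higher in each genotype, Foxp3, Ikzf2, Ikzf4, Lrrc32 and Cd101, and 0 lower, beside 17% of all genes called higher in KI, 15% in KO and 15.6% in WT, and 15.8%, 15% and 15.2% lower, in all 32.8%, 30% and 30.8%. Those 5 did not overlap between Treg and Th1 either, as held for 11.9%, 11.2% and 5.59% of all genes. In Th1 over Th0, 2 were higher and 1 lower in KI, 3 and 0 in KO and 3 and 1 in WT, beside 2.98% and 2.94%, 5.33% and 4.18%, and 2.22% and 0.818% of all genes, or 5.92%, 9.51% and 3.04% in either direction. The KO count was 5 higher without KI 3, KO 2 and WT 4, when Foxp3 (1.61) and Cd101 (1.22) were also called. The shares of all genes above are not from that fit. With all libraries Foxp3 averaged 1.99 CPM in Th1 KO and 0.747 CPM in Th0 KO, and Cd101 1.94 and 0.962 CPM, so both values rest on low levels. With 1 library left out their log2 fold changes ran from 0.92 to 1.62 and from 0.79 to 1.33, none called. The WT count of 4 was 1 in the fit of only those 10 libraries, 2 with no filter on low counts, and 1 without Th1 WT 1, Th1 WT 3 or Th0 WT 5. It was 2 without Th1 WT 4, Th0 WT 2, Th0 WT 3 or Th0 WT 4.

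**Figure D2:**
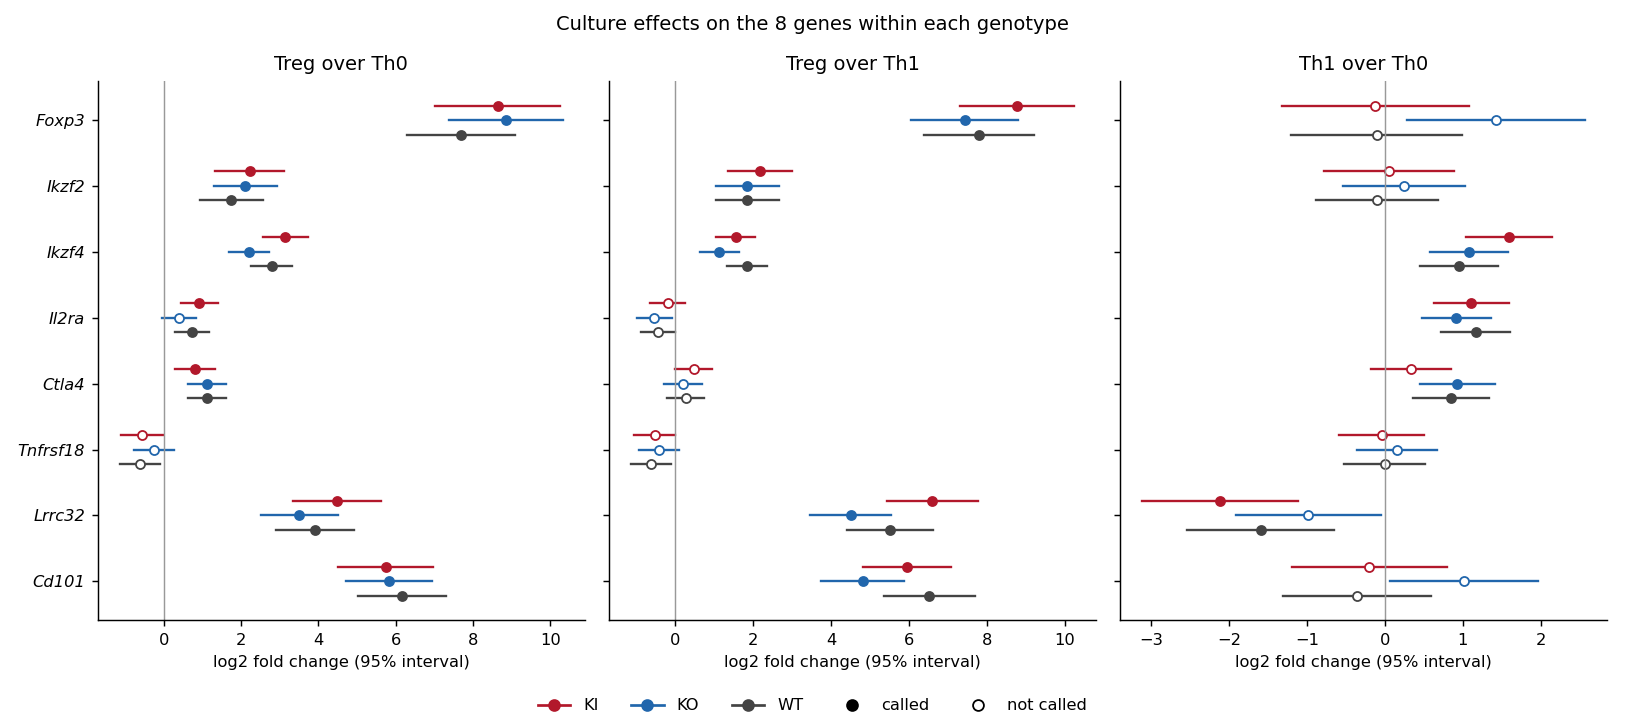
Log2 fold changes of the 8 genes with 95% intervals for Treg over Th0, Treg over Th1 and Th1 over Th0, in KI, KO and WT, from edgeR; filled points passed the threshold. Foxp3, Cd101 and Lrrc32 show the largest Treg effects, from 3.51 for Lrrc32 in KO to 8.85 for Foxp3 in KO over Th0, while Tnfrsf18 lies below 0 in the first 2 panels, none of its points filled.

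Levels of different genes were compared only per kilobase of annotated exon. On that scale the mean levels in Treg KI were 297 CPM per kb for Il2ra, 199.8 for Ctla4, 136.1 for Tnfrsf18, 95.4 for Foxp3, 28.1 for Ikzf4, 23.8 for Cd101, 16.3 for Lrrc32 and 6.42 for Ikzf2. In Th0 KI the receptor genes were already at 158, 114.5 and 203 CPM per kb for Il2ra, Ctla4 and Tnfrsf18, while Foxp3 stood at 0.239 and Cd101 at 0.446.

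Among the Treg libraries themselves Foxp3 fell into separate sets of libraries, with gaps over 1 on the log2 scale between them: Treg WT 4, KI 3 and KO 2 at 47.7 to 77.4 CPM, Treg WT 3 at 159 CPM, and 11 libraries at 376 to 596 CPM. Treg KI 3, KO 2 and WT 4 were the lowest of their genotype for Foxp3, Lrrc32, Cd101 and Ikzf4 and the highest for Tnfrsf18. Ikzf2 did not follow, since Treg KI 3 was the highest of its group at 137.7 CPM and Treg KO 2 the next to highest of its group at 236 CPM. These libraries also held the most Ifng of their genotype, the cytokine gene of Th1 cells, at 160.1, 157 and 846 CPM, against 0.623 to 8.88 CPM in the libraries other than Treg WT 3 at 78.7 CPM. The share of the CD8 and NK markers in the low Foxp3 values was not tested. No correlation was taken over all 15 libraries because of the separate sets. Within the 11 libraries at 376 to 596 CPM, Pearson's r with Foxp3, of log2 CPM less the genotype mean, was 0.62 for Ikzf4, 0.51 for Lrrc32, 0.40 for Il2ra, 0.15 for Ikzf2, 0.14 for Cd101, -0.40 for Tnfrsf18 and -0.62 for Ctla4. None of these 7 passed a permutation test (lowest adjusted p 0.283, two-sided), and Spearman's rho ran from -0.66 to 0.58 (lowest adjusted p 0.22 by permutation). Without Treg KO 3 and Treg KO 4, the 2 farthest from the median of Foxp3, r was 0.68, 0.61, 0.35, 0.27, 0.32, -0.41 and -0.82 in the same order.

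**Figure D3:**
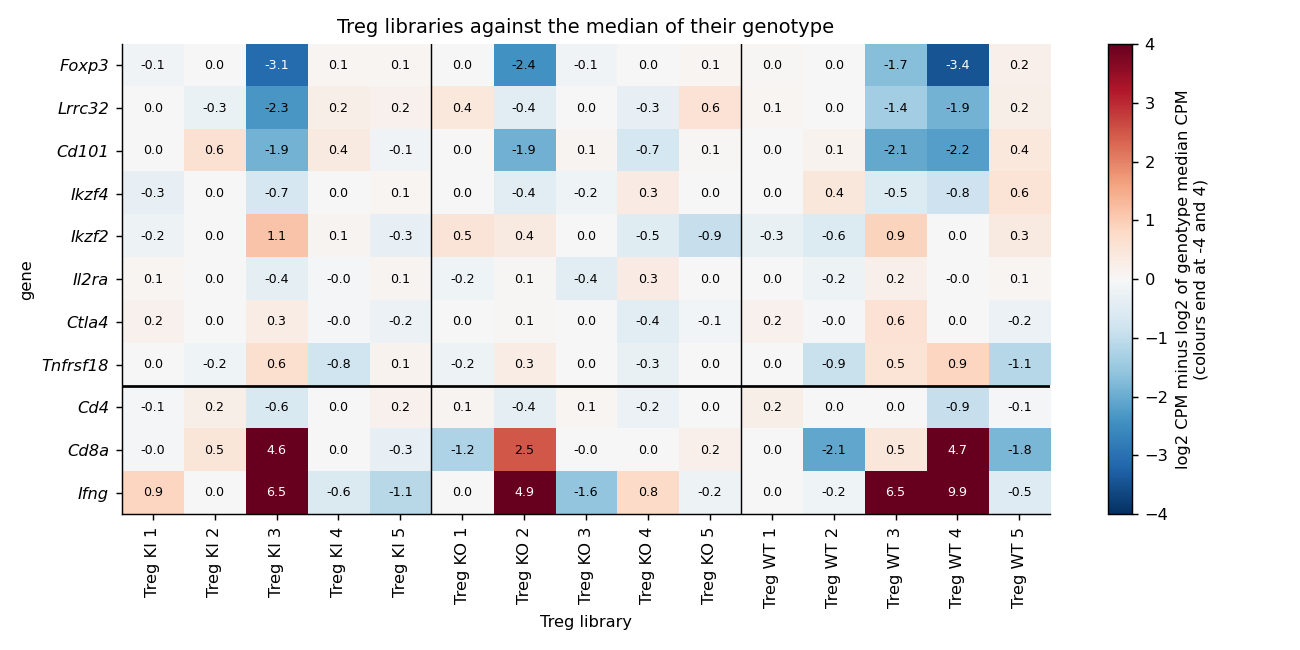
Log2 CPM of the 8 genes and of Cd4, Cd8a and Ifng in each of the 15 Treg libraries, less the log2 of the median CPM of that genotype, with colours that end at -4 and 4. Treg KI 3, KO 2 and WT 4 are low for Foxp3, Cd101, Lrrc32 and Ikzf4 and high for Tnfrsf18, Cd8a and Ifng, and Treg WT 3 is low for Foxp3, Lrrc32 and Cd101 and high for Ifng.

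Between genotypes within a culture none of the 8 genes was called by edgeR in any of 9 comparisons. Of 72 tests, 12 (16.7%) had an unadjusted p under 0.05, beside 9.93% of the tests over all genes, and DESeq2 called 1. Of all genes in Treg, 0.0229% were called for KI over KO (0.00457% higher and 0.0183% lower), 0% for KI over WT and 0.169% for KO over WT (0.105% higher and 0.064% lower). In Th1 these shares were 0%, 0.0274% (0.00914% higher and 0.0183% lower) and 0%, and in Th0 0%, 0.512% (0.471% higher and 0.0411% lower) and 0%. Foxp3 itself averaged 437 CPM in Treg KI (SD 212), 343 CPM in Treg KO (SD 149.9) and 371 CPM in Treg WT (SD 249), with n = 5 in each. Its log2 fold changes were 0.35 ± 0.51 for KI over KO, 0.23 ± 0.51 for KI over WT and -0.11 ± 0.51 for KO over WT, with 95% intervals of -0.69 to 1.38, -0.80 to 1.27 and -1.15 to 0.92.

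Ikzf2 was the member with the lowest p, and KO libraries had its highest mean in each culture. It stood at 54.4, 62.7, 137.7, 68.02 and 49.95 CPM in Treg KI 1 to 5, at 262, 236, 183, 130.8 and 95.6 CPM in Treg KO 1 to 5, and at 63.2, 52.9, 144.3, 77.9 and 99.1 CPM in Treg WT 1 to 5. In Th1 cultures it stood at 14.2, 9.77, 35.7, 13.2 and 10.1 CPM in KI 1 to 5, at 32.4, 77.3, 61.8, 36.6 and 43.6 CPM in KO 1 to 5, and at 15.3, 7.83, 43.3, 24.98 and 29.99 CPM in WT 1 to 5. In Th0 cultures it stood at 15.6, 20.3, 15.97 and 12.3 CPM in KI 1, 3, 4 and 5, at 30.2, 70.8, 44.2, 29.2 and 37.2 CPM in KO 1 to 5, and at 16.6, 15.3, 36.1, 22.5 and 39.9 CPM in WT 1 to 5. All Th0 KI libraries lay below all Th0 KO libraries, as 1.76% of genes did in that comparison, while in Treg and Th1 cultures library KI 3 lay within the KO range. KI over KO gave -1.28 ± 0.39 in Treg (adjusted p = 0.35 by edgeR), -1.60 ± 0.40 in Th1 (adjusted p = 0.26) and -1.40 ± 0.43 in Th0 (adjusted p = 0.178). DESeq2 called the Th1 value alone (adjusted p = 0.0289), at the same -1.60. KO over WT gave 1.05, 1.05 and 0.70 in Treg, Th1 and Th0 and KI over WT -0.23, -0.55 and -0.70, none called. The predicted genes Gm29114, Gm29112 and Gm28112 are annotated over Ikzf2, and their reads cannot be told apart from its own without the strand setting.

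Lrrc32 was the other gene with an unadjusted p under 0.05 in Treg cultures. Its means were 76.4 CPM in Treg KI (SD 34.96), 34.1 CPM in Treg KO (SD 10.5) and 68.4 CPM in Treg WT (SD 36.8), with n = 5 in each. Its log2 fold change was 1.17 ± 0.45 for KI over KO (adjusted p = 0.502 by edgeR) and -1.01 ± 0.45 for KO over WT (adjusted p = 0.43). The groups overlapped, and neither was called. Over the 9 genotype comparisons the log2 fold changes ran from -0.56 to 0.37 for Ikzf4, -0.59 to 0.35 for Il2ra, -0.53 to 0.47 for Ctla4, -0.14 to 0.45 for Tnfrsf18 and -0.71 to 0.998 for Cd101. The effect of Treg or Th1 over Th0 differed between genotypes for 0 of the 8 genes in 6 comparisons by edgeR, and 0 by DESeq2, beside 0% of all genes. Of these 48 tests 2 (4.17%) had an unadjusted p under 0.05, beside 4.37% over all genes.

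**Figure D4:**
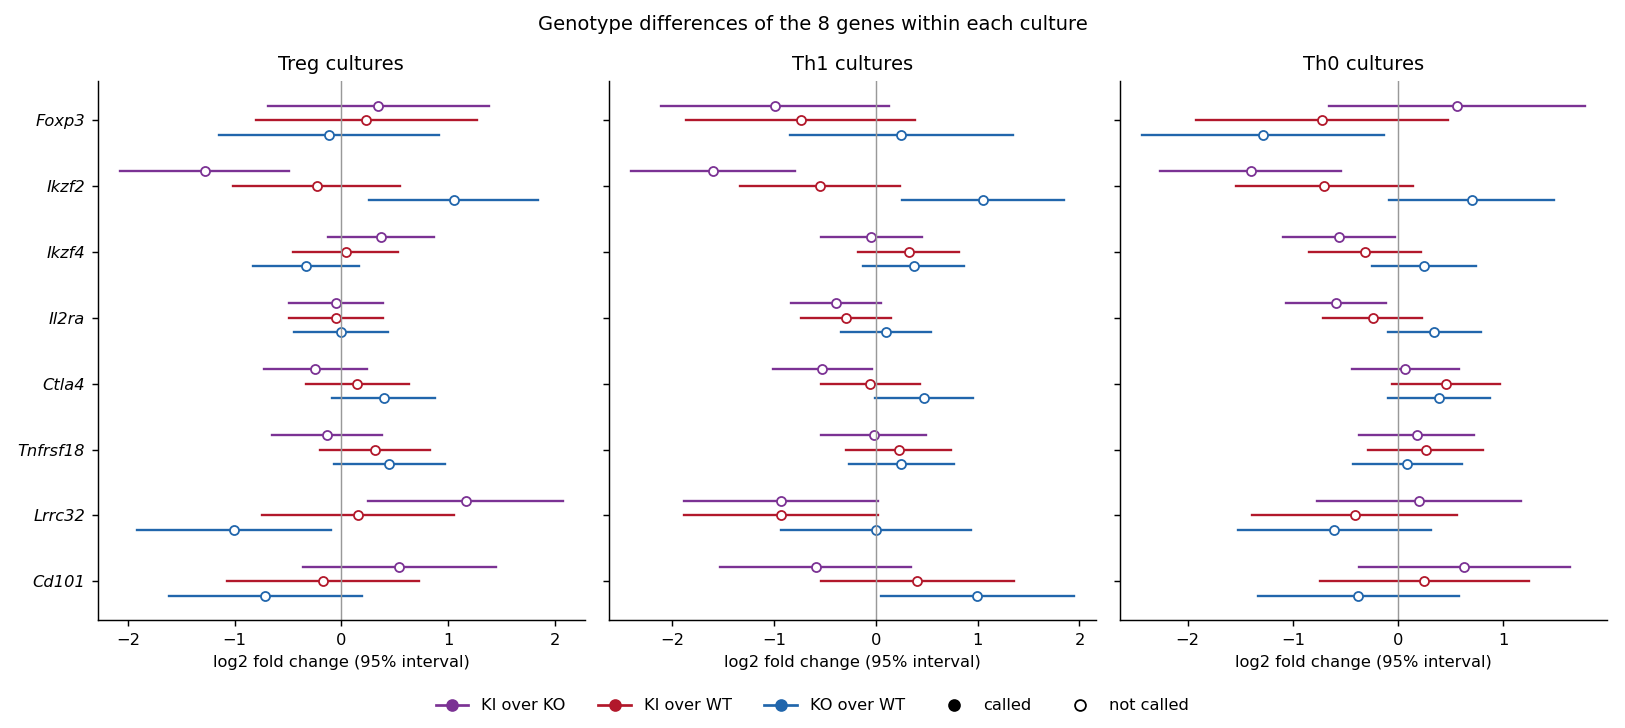
Log2 fold changes of the 8 genes with 95% intervals for KI over KO, KI over WT and KO over WT within Treg, Th1 and Th0 cultures, from edgeR; all points are open because none was called. Ikzf2 lies at -1.28, -1.60 and -1.40 for KI over KO and Lrrc32 in Treg at 1.17 for KI over KO.

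Genes known to act on the Foxp3 gene moved in both directions in Treg over Th0. Of 28 regulators of Foxp3 transcription, 13 rose and 3 fell in KI, 10 and 4 in KO and 9 and 4 in WT, with a median log2 fold change of 0.34, 0.14 and 0.00. These counts were 14 and 6, 11 and 6, and 10 and 5 without KI 3, KO 2 and WT 4. Of all genes, with all libraries, 16.7% rose and 16.9% fell in KI, 17.1% and 15.9% in KO, and 17.4% and 15.7% in WT. Ets1, an activator of the Foxp3 locus in T cells, rose by 1.62, 1.32 and 1.32 in KI, KO and WT, and Foxo1, a forkhead factor needed for regulatory T cells, by 1.35, 1.01 and 1.42. Runx1, whose product binds the Foxp3 locus with CBF-beta, rose by 1.20, 0.88 and 1.32, and Nfatc2, a factor of T cell receptor signalling, by 1.36, 0.79 and 0.95. Nr4a2, an orphan receptor gene induced by T cell receptor signals, fell by 1.81, 1.85 and 2.00 on the log2 scale, and the genome organiser gene Satb1 changed by -1.58 in KO and -0.87 in WT (-0.77 in KI, not called). The SMAD genes that carry the TGF-beta signal, chosen for naming after their values were seen, gave 0.30, -0.05 and -0.02 for Smad3, not called, and 0.61, 0.48 and 0.48 for Smad4, which rose. In Th1 over Th0 the counts were 4 and 2 in KI, 2 and 4 in KO and 1 and 1 in WT. Of all genes, 2.98% rose and 2.94% fell in KI, 5.33% and 4.18% in KO, and 2.22% and 0.818% in WT. Gata3, the Th2 lineage factor, changed by -2.68, -4.10 and -4.02 in Th1 over Th0.

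Within IL-2 signalling, the cytokine gene fell, and its beta and gamma receptor chains were not called. Il2 stood at 0.630 ± 0.210, 0.656 ± 0.279 and 1.02 ± 0.340 CPM in Treg KI, KO and WT (SD, n = 5 each), against 204 ± 142.7, 212.5 ± 102.5 and 237 ± 66.3 CPM in Th0 KI, KO and WT (SD, n = 4, 5 and 5). Its log2 fold change was -8.34 ± 1.21, -8.34 ± 1.20 and -7.84 ± 1.17. The beta chain gene Il2rb gave 0.61, 0.16 and 0.38 and the common gamma chain gene Il2rg 0.10, 0.07 and -0.17, none called. Of the 15 genes, 6 rose and 1 fell in KI, 6 and 2 in KO and 6 and 1 in WT (medians 0.53, 0.17 and 0.35). These counts were 9 and 1, 5 and 2, and 6 and 2 without KI 3, KO 2 and WT 4. Of all genes, with all libraries, 33.6%, 33% and 33.1% were called in either direction in KI, KO and WT. Socs2, an inhibitor of cytokine signalling, rose by 3.13, 3.40 and 2.42, the survival gene Bcl2 by 1.12, 0.91 and 1.11 and the kinase gene Jak1 by 0.76, 0.49 and 0.74.

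Of the other Ikaros family genes, Ikzf3, which encodes AIOLOS, rose by 1.83 ± 0.30, 1.66 ± 0.28 and 1.62 ± 0.28 in Treg KI, KO and WT. Ikzf1, which encodes IKAROS, gave 0.31, 0.29 and 0.19, not called, and Ikzf5 0.41, called in KI, and 0.34 and 0.13, not called. In this list 2 of 3 rose in KI and 1 of 3 in KO and WT (medians 0.41, 0.34 and 0.19). Of all genes, 16.7% rose in KI, 17.1% in KO and 17.4% in WT.

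**Figure D5:**
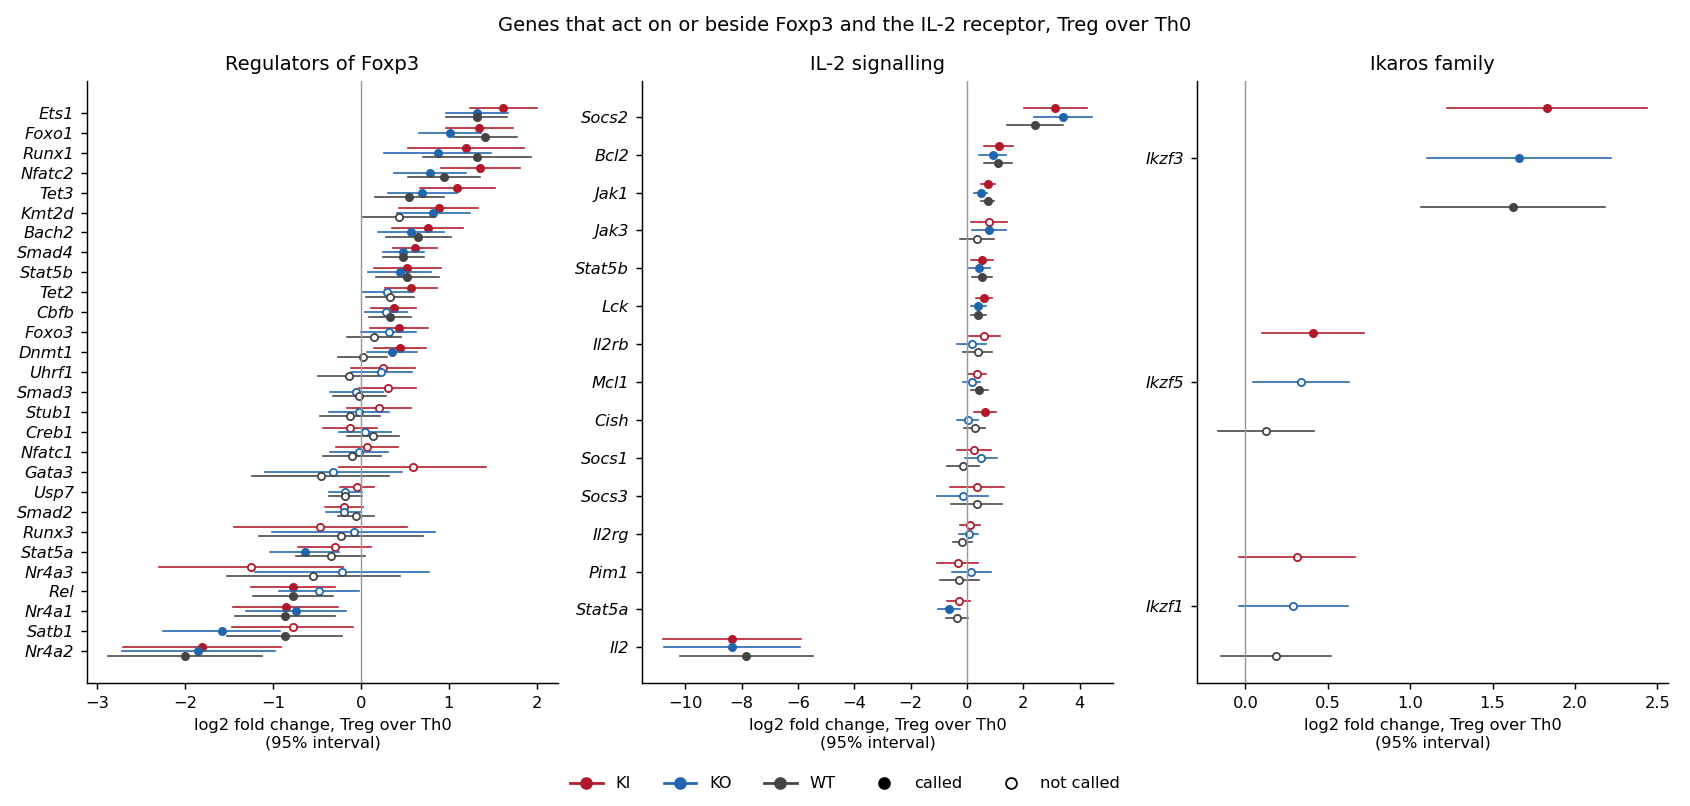
Log2 fold changes of Treg over Th0 with 95% intervals for 28 regulators of Foxp3, 15 genes of IL-2 signalling and 3 further Ikaros family genes in KI, KO and WT, from edgeR; filled points passed the threshold, and the panels have different axes. Ets1 and Foxo1 are at the top of the first panel, Il2 stands alone at -8.34 to -7.84 in the second, and Ikzf3 is called in all 3 genotypes in the third.

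Among 21 ligands, paralogs and partners of the members, of which 20 were tested, 2 rose and 2 fell in KI, 3 and 4 in KO and 3 and 4 in WT (medians -0.26, -0.08 and 0.00). Of all genes, 33.6%, 33% and 33.1% were called in either direction, and this list lay near or below that share. Tnfrsf1b, the TNF receptor 2 gene, rose by 1.36, 1.24 and 1.48, and Tnfrsf4, which encodes OX40 and neighbours GITR in the receptor family, changed by -1.09, -1.04 and -1.15. Cd28, the receptor that competes with CTLA4 for ligands, rose by 0.67, 0.84 and 0.84, and Nrros, an LRRC32 paralog, changed by -0.52, -0.65 and -1.04. Tgfb1 gave 0.39, 0.53 and 0.47, not called. Foxp2 and Tgfb2 were called lower in KO and WT but stayed under 1 CPM on average in every group, so no fold is given.

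Of 25 other genes associated with regulatory T cells, 10 rose and 3 fell in KI, 7 and 3 in KO and 9 and 3 in WT (medians -0.60, -0.61 and 0.18). Beside them, 16.7% of all genes rose and 16.9% fell in KI, 17.1% and 15.9% in KO, and 17.4% and 15.7% in WT. Nt5e, which encodes the ectoenzyme CD73, rose by 6.70 ± 0.73, 5.73 ± 0.63 and 6.32 ± 0.65, and the CD103 integrin gene Itgae by 5.94 ± 0.69, 4.61 ± 0.58 and 6.31 ± 0.63. The G protein-coupled receptor gene Gpr83 rose by 3.90, 3.39 and 2.62 and Entpd1, which encodes the ectoenzyme CD39, by 2.57, 2.69 and 2.55. Penk, the proenkephalin gene, changed by -2.75, -2.73 and -2.24, and Ebi3, a subunit gene of IL-27 and IL-35, by -1.30, -1.12 and -1.27. Without KI 3, KO 2 and WT 4 the counts were 10 lower in KI, 11 in KO and 7 in WT, beside 10, 8 and 9 higher. The shares of all genes above are from the fit with all libraries. For the fit without these libraries no such share is given, so these counts are not read as a trait of the list.

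Across the 9 group means of log2 CPM, the genes most like Foxp3 among 9668 compared were Hp1bp3, Oip5os1, Neil3, Tubgcp4 and Polg2, with Pearson's r of 0.9963, 0.9961, 0.9957, 0.9953 and 0.9949. Hp1bp3, for one, averaged 354, 353 and 339.8 CPM in Treg KI, KO and WT, against 159 to 184 CPM in the 6 other groups. These r values do not depend on the size of the difference, and the points share a culture in sets of 3. Among the 8 genes, r with Foxp3 over the same means was 0.992 for Cd101, 0.941 for Lrrc32, 0.889 for Ikzf4, 0.839 for Ikzf2, 0.703 for Ctla4, 0.201 for Il2ra and -0.826 for Tnfrsf18. The values describe these 9 means only.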

How the data were processed

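Bulk mRNA-seq was analysed from 44 libraries. The authors deposited whole-number counts per gene, as 88 columns of sequencing lanes. Per the file headers, reads were trimmed and aligned with STAR, and per the submitters' processing notes the assembly was GRCh38, although the gene IDs are of mouse. The counting tool, annotation and strand setting are unknown here. Lanes were summed per library, giving 60815821 to 137415965 counts, and 1492 genes of the table have an ID without a symbol and were not left out for it. The members and gene lists were chosen with earlier results of these data known.

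Counts were filtered with filterByExpr and scaled by TMM (factors 0.939 to 1.05) in edgeR 4.0.16 under R 4.3.3. All groups entered 1 quasi-likelihood model of 9 group means, with 24 contrasts. Genes with a Benjamini-Hochberg adjusted p under 0.05 over 21873 genes were called. Standard errors are the absolute log2 fold change over the square root of F, and intervals are 95%. CPM used the TMM-scaled totals. Over all genes the median log2 fold change of a contrast lay between -0.04 and 0.04. Correlations used 100000 permutations. Exon lengths and positions came from GENCODE M21. The model was tested on simulated data. The deposited normalised table was not used.

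Named genes were the 8 members, up to 4 called genes per list and comparison by size, some list genes given in any case, and the 5 genes most like Foxp3 over group means at a mean log2 CPM of at least 2. The part of that rule on likeness within Treg libraries was not run, as Foxp3 fell into separate sets there. Pairing by number was checked by correlating same-numbered deviations from group means. These ran from 0.204 to 0.381 in WT, 0.155 to 0.448 in KO and 0.122 to 0.507 in KI between Th1 and Th0. Numbers therefore paired there by the rule. The standard errors and p-values of the main model do not use these pairs. A replicate block, run as an alternative, changed no call for the 8 genes between Th1 and Th0. Alternatives were DESeq2 1.42.0, RLE size factors, no filter, a replicate block, only the compared groups, leaving out each library, and leaving out the 9 libraries numbered KI 3, KO 2 and WT 4.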

Additional observations from a re-analysis of the deposited data

Results flagged for a closer look

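Within each group of 4 or 5 libraries, the gap between the extreme library and its neighbour was divided by the range on the log2 scale and set against Dixon's 95% critical value, which is 0.71 for 5 libraries. Of 72 groups of a gene 8 passed, where chance gives about 3.6 at 1 in 20. Of these, 3 were in Treg cultures and involved the libraries with high Cd8a. Foxp3 was 61.97 CPM in Treg KI 3 (next 479.3) and 77.39 CPM in Treg KO 2 (next 375.8), each the lowest of its group. Lrrc32 was lowest in Treg KI 3, at 17.41 CPM (next 73.72).

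The other 5 were in Th1 and Th0 cultures. Il2ra was highest in Th1 KI 2 at 2204 CPM (next 1934). Tnfrsf18 was lowest in Th1 WT 5 at 164.5 CPM (next 267). Cd101 was highest in Th1 WT 1 at 1.335 CPM (next 0.922). Ikzf4 was highest in Th0 KO 2 at 49.24 CPM (next 24.84). Tnfrsf18 was highest in Th0 WT 3 at 345 CPM (next 251.4).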

How the results depend on the processing

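Of 45 called fold changes of the 8 genes, 710 refits under the alternatives reversed 0, and in 28 the call was lost, mostly for Ikzf4, Ctla4 and Lrrc32 of Th1 WT over Th0 WT. That count of 4 was 2 with no filter, 1 with only the compared groups, and 1 to 4 with 1 library left out. The count for Th1 KO over Th0 KO was 5 without KI 3, KO 2 and WT 4. No share of all genes is given for that fit. DESeq2 called 1 gene for Th1 KI over Th1 KO. The cause was not tested.

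Values near 0 changed sign, none of them called. Under the replicate block these were Foxp3 of Th1 WT over Th0 WT (0.02) and, of Th1 KI over Th0 KI, Ikzf2 (-0.03) and Tnfrsf18 (0.01). Without KI 3, KO 2 and WT 4 the last pair gave -0.28 and 0.09. Tnfrsf18 of Th1 WT over Th0 WT was 0.00 with no filter and 0.01 with only the compared groups. With 1 library left out, Th1 WT over Th0 WT ran from -0.28 to 0.18 for Foxp3, -0.41 to 0.14 for Ikzf2 and -0.06 to 0.14 for Tnfrsf18. Th1 KI over Th0 KI ran from -0.36 to 0.23 for Foxp3, -0.42 to 0.20 for Ikzf2, -0.15 to 0.12 for Tnfrsf18 and -0.41 to 0.12 for Cd101. Treg KI over Treg WT ran from -0.59 to 0.02 for Ikzf2, -0.06 to 0.41 for Lrrc32 and -0.05 to 0.51 for Foxp3, and Foxp3 of Treg KO over Treg WT from -0.42 to 0.12.

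With Treg WT 3 added to the 11 libraries, r with Foxp3 was -0.54 for Ikzf2, -0.28 for Il2ra, 0.83 for Ikzf4, -0.76 for Ctla4 and 0.88 for Lrrc32, the last 3 passing a permutation test (adjusted p = 0.0341, 0.0341 and 0.0423). Without Treg WT 3 and Treg KO 3 these 3 were 0.53, -0.57 and 0.47, so they rest on those libraries. With Treg WT 3 added, Cd101 gave 0.90 (adjusted p = 0.121 by permutation) and Tnfrsf18 -0.72 (adjusted p = 0.0715 by permutation), and without Treg WT 3 and Treg KO 3 0.35 and -0.38.

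Treg libraries did not pair by the rule, which looks at the lowest same-numbered correlation (0.068 to 0.097). Their same-numbered correlations with Th0 and Th1 libraries still averaged 0.137 to 0.215, against -0.052 to -0.033 for other numbers. The replicate block there called Tnfrsf18 lower in KI over Th0 (-0.58) and Th1 (-0.59) and in WT (-0.78 and -0.75), and Il2ra of Treg KO over Th0 KO (0.45) and over Th1 KO (-0.50). DESeq2 called Tnfrsf18 in WT (-0.63 and -0.63), Foxp3 of Th1 KO over Th0 KO (1.41) and Il2ra of Treg KO over Th1 KO (-0.56). The fit of only the compared groups also called that value of Foxp3 (1.41). Leaving out KI 3, KO 2 and WT 4 was a setting chosen after seeing the data. In Treg over Th0, called genes of the ligand list in KI then numbered 8, against 4 with all libraries. Of the other regulatory T cell genes 20 were called in KI, against 13, and 19 in KO, against 10. With all libraries 33.6% of all genes were called in KI and 33% in KO. No share is given for the fit without these libraries, so the counts are not read as changes of the lists. Low Foxp3, Lrrc32 and Cd101 values in Th1 and Th0 limit those comparisons.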
